A study of Homo sapiens with 3 samples.

Results

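In prostate cancer cells that had lost ETS1, ETS2 and the chromatin reader ZMYND11 were listed at many of the same positions, and these shared positions are described here. They were selected on the deposited coordinates of both knockout lists, as the regions of the ETS2 list that overlapped a region of the knockout ZMYND11 list by at least 1 bp. There were 582 such regions among the 1020 of the ETS2 list, or 57.1%, and each was kept at its place (line number) in that list. The overlap of the 2 lists chose the members, so the number shared and the overlap lengths are a description and carry no test.

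The study used ChIP-seq, in which an antibody pulls down a chosen protein with the DNA it is bound to and that DNA is sequenced, in DU145, an established prostate adenocarcinoma line from a brain metastasis. The groups were ZMYND11 (BS69) in parental DU145 cells, ZMYND11 in DU145 cells with ETS1 knocked out, and ETS2 in DU145 cells with ETS1 knocked out, with 1 library each. The cells carried no other treatment in the labels, apart from puromycin in the medium where they were selected. Whether the knockout line was a single clone, and how the knockout was made, is not given in the sources used here. No replicate and no input library was analysed, so no value below has a replicate error, and the depth is unknown.

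ETS1 and ETS2 are closely related transcription factors that bind DNA through a shared ETS domain and are phosphorylated at a conserved site when Ras and ERK signalling is active. ZMYND11 recognises a methylated histone variant found in the bodies of transcribed genes, restrains transcription elongation, and also binds other proteins through its MYND domain. The title of the study names ZMYND11 as the partner through which the 2 ETS factors take opposing roles. The comparison of ETS2 with ZMYND11 in knockout cells therefore asks where both proteins sit when ETS1 is missing.

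The deposited lists give positions on hg19 and nothing else, and they are printed here as deposited. The knockout ZMYND11 list held 15676 regions and the parental ZMYND11 list 536. No gene, gene feature or sequence was assigned to a region, because the annotation and sequence tables at hand were on another build. Regions of known artefactual signal were not screened out, and the loss of ETS1 was not checked from these lists.

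Each of the 582 ETS2 regions met exactly 1 ZMYND11 region, and no ZMYND11 region was met by more than 1 ETS2 region. The members were thus 582 separate pairs, which took up 3.71% of the knockout ZMYND11 list. Both lists were sparse at short range: the closest midpoints in the ETS2 list were 1113 bp apart and those in the knockout ZMYND11 list 990.5 bp apart. Median widths were 497 bp for the shared ETS2 regions and 499 bp for their ZMYND11 partners, against 496 bp for the ETS2 regions without ZMYND11.

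The pairs overlapped over a median of 356 bp (quartiles 238 and 437 bp), which was a median of 72.8% of the narrower region. In 134 pairs the overlap reached at least 90% of the narrower region, and in 155 pairs it stayed below 50%. Midpoints lay within 50 bp of each other in 127 pairs (21.8%, 95% Wilson interval 18.7 to 25.4%), within 100 bp in 222 (38.1%) and within 250 bp in 428 (73.5%). All intervals for shares are of this kind and cover counting error only. The rule itself bounds the distance, since regions of this width cannot overlap beyond about their own length.

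ZMYND11 lay on either side of ETS2 along the chromosome in similar numbers. Its midpoint was at the lower coordinate in 284 pairs, at the higher in 297, and at the same base in 1. The median signed offset was 3.5 bp (exact binomial 95% interval -11 to 23.5 bp). No gene or strand was assigned, so an offset along the direction of genes could not be seen in these values. The single pair with equal midpoints was on chromosome 8, where ETS2 covered 28747517 to 28748014 (place 320) and ZMYND11 28747515 to 28748016 (place 383). No pair had the same start and end in both lists, and 9 pairs had both ends within 5 bp.

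**Figure D1:**
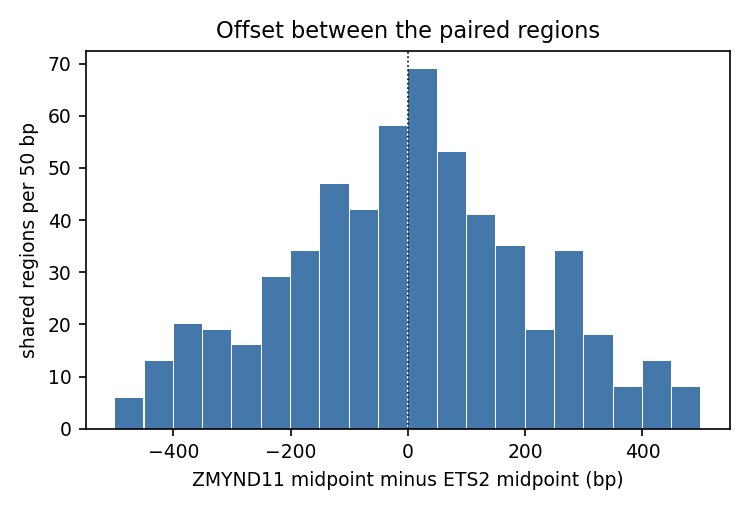
Number of shared regions per 50 bp of offset, where the offset is the ZMYND11 midpoint minus the ETS2 midpoint in bp, with the dotted line at 0. The fullest bins lie on either side of 0, with 58 pairs from -50 to 0 bp and 69 from 0 to 50 bp, and the outermost hold 6 and 8.

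The 20 shared regions listed first in the ETS2 list held places 1 to 22, so few early ETS2 regions were missing from the set. They had ZMYND11 places from 1 to 283 (median 19.5), and 16 of them were among the first 100 ZMYND11 regions. Their overlaps ran from 114 to 498 bp (median 390.5 bp).

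Nearly coincident pairs stood at several of these positions. On chromosome 2, ETS2 covered 33141255 to 33141740 (ETS2 place 1) and ZMYND11 33141256 to 33141726 (place 111), so that the ZMYND11 region lay wholly inside the ETS2 region. On chromosome 11, the ETS2 region 62608869 to 62609368 (place 2) and the first ZMYND11 region, 62608870 to 62609370, had midpoints 1.5 bp apart. A second chromosome 2 pair, 74699496 to 74699996 for ETS2 (place 18) and 74699502 to 74700001 for ZMYND11 (place 11), was 5.5 bp apart. These 3 pairs overlapped over 470, 498 and 494 bp.

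Chromosome 17 held 4 of the first 20, and they differed widely in overlap. At place 7, 18966821 to 18967314 overlapped ZMYND11 (place 35) over 475 bp. At place 17, 19091279 to 19091569 was the narrowest ETS2 region, at 290 bp, and lay inside a ZMYND11 region of 299 bp at place 30. By contrast, the region at place 3, 57920783 to 57921284, touched the ZMYND11 region also at place 3 over only 114 bp, with midpoints 387 bp apart. At place 10, 79825671 to 79826166 overlapped its partner (place 8) over 240 bp.

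Some members near the top of both lists had large offsets. On chromosome 11, 65274531 to 65275031 (ETS2 place 6, ZMYND11 place 13) overlapped over 130 bp with midpoints 370.5 bp apart, and 65658735 to 65659234 (places 5 and 7) over 394 bp. The fourth early member on that chromosome was 82996923 to 82997423 (places 12 and 58), with an overlap of 472 bp. Across all 582 pairs the midpoint distance showed almost no relation to place, with Spearman's rho of 0.08 against the ETS2 place and 0.05 against the ZMYND11 place. Pairs share their libraries, so these are descriptions across regions.

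The other early members were spread over 6 chromosomes. Chromosome 1 held 4 of them, all within the first 36 ZMYND11 places. The region chr1:149223791-149224292 (ETS2 place 4, ZMYND11 place 2) overlapped over 463 bp and chr1:148241409-148241910 (places 11 and 4) over 440 bp. The values were 347 bp for chr1:156736950-156737449 (places 13 and 36) and 247 bp for chr1:15759209-15759709 (places 22 and 26). On chromosome 19, chr19:42746812-42747311 (places 14 and 96) overlapped over 387 bp and chr19:54618563-54619057 (places 19 and 118) over 280 bp. Single early members were chr9:130207990-130208491 (places 8 and 6), with 322 bp, and chr14:31091342-31091843 (places 16 and 5), with 308 bp. The latest ZMYND11 places among the first 20 were those of chr12:133656840-133657335 (ETS2 place 20, ZMYND11 place 283, 401 bp) and chr8:144897915-144898415 (21 and 250, 437 bp).

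Place in the ETS2 list and place in the ZMYND11 list moved together. As line numbers, the quartiles of the ZMYND11 place were wider apart at the end of the ETS2 list than at its start, but did not widen at every step. In the first 10% of the ETS2 list, 84 of 102 regions were members, and their ZMYND11 places had a median of 92 (quartiles 28.5 and 185). Among places 409 to 510, 54 were members, with a median ZMYND11 place of 678 (quartiles 382 and 1058). Among places 919 to 1020, 38 were members, with a median of 1412.5 and quartiles of 952.5 and 6822.5. The median overlap was 360 bp, 321 bp and 342.5 bp in these 3 stretches, and over all 10 equal stretches of the list it lay between 321 and 379 bp. Spearman's rho of the places was 0.63 over the 582 pairs, as a description of 2 lists whose order is not explained in the sources used here.

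The members' partners lay mostly in the early part of the ZMYND11 list. Of the 582, 464 had a ZMYND11 place in the first 10% of that list, 535 in the first 20% and 567 in the first 50%. The 15 with a later place were mostly late in the ETS2 list too, with a median ETS2 place of 933 (range 332 to 1014). Their overlap was a median of 329 bp, against 356 bp for all members.

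**Figure D2:**
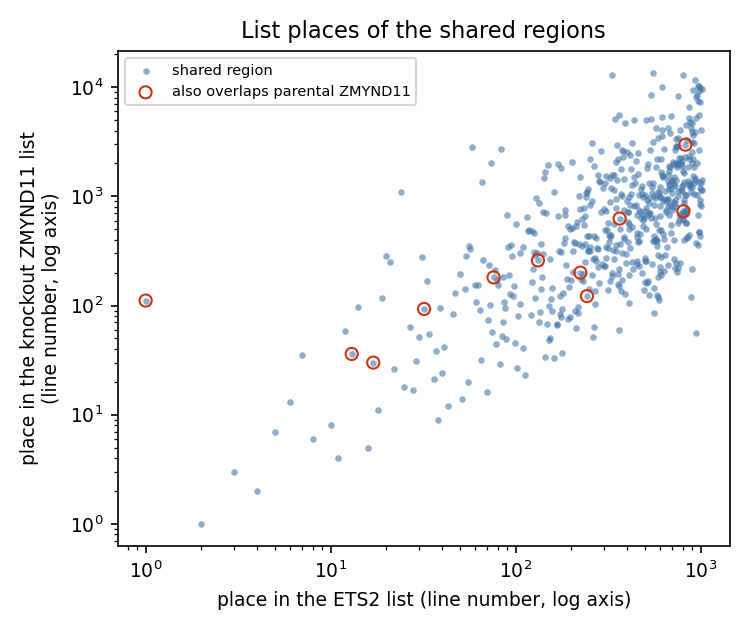
Place of each shared region in the ETS2 list (x axis) against the place of its partner in the knockout ZMYND11 list (y axis), both as line numbers on log axes, with red circles for the 11 that also overlap a parental ZMYND11 region. Points rise together from the lower left, and late ETS2 places go with ZMYND11 places from 56 to above 10000.

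Some members stood far apart in the lists. To find them, each place was divided by the length of its list. The most extreme towards ETS2 was chr4:155077-155574, at place 332 for ETS2 but 12942 for ZMYND11. It was followed by chr12:120971735-120972235, at places 551 and 13416. The next were early for ETS2 and in the first 20% for ZMYND11: chr5:173043554-173044050 (58 and 2848), chr12:88535717-88536214 (83 and 2743) and chr19:44980707-44981202 (74 and 2039). The overlaps of these 5 ran from 170 to 465 bp, none of them at the edge of the rule.

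In the other direction, chr9:125675900-125676400 was at place 990 for ETS2 and 432 for ZMYND11. The following 4 were chr12:56552096-56552596 (983 and 467), chr19:10663552-10664051 (1002 and 815), chr3:50388801-50389296 (978 and 476) and chr13:109920107-109920608 (963 and 359). Of these 5, the chromosome 3 pair overlapped over 11 bp and the others over 272 to 435 bp. The last 5 members of the ETS2 list kept sizeable overlaps too. These were chr5:137911076-137911562 (place 1005, 220 bp), chr11:64577804-64578305 (1006, 398 bp), chr12:109915131-109915625 (1012, 473 bp), chr9:114118245-114118744 (1014, 449 bp) and chr13:21347493-21347989 (1017, 264 bp).

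The edge of the rule can be seen from the regions on either side of it. The smallest overlaps among members were 9 bp at chr11:125494939-125495425, 11 bp at chr11:825759-826250 and chr3:50388801-50389296, 14 bp at chr22:40766750-40767248 and 17 bp at chr1:38178345-38178843. The ETS2 regions nearest to ZMYND11 without overlap had gaps of 3 bp at chr5:133746757-133747258, 7 bp at chr9:35560033-35560513, 16 bp at chr21:17269321-17269796, 22 bp at chr5:177636667-177637159 and 24 bp at chr4:378551-379052. In all, 14 members overlapped over at most 50 bp, and 18 regions outside the set lay within a gap of 50 bp. No pair abutted with a gap of 0, so membership is the same whether starts are counted from 0 or from 1.

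The shared regions had another ETS2 region close by less often than the 438 ETS2 regions outside the set. The distance to other ETS2 regions was not part of the rule, but membership is linked to it. Given the widths and the spacing of the ETS2 list, no ZMYND11 region could meet more than 1 ETS2 region. An ETS2 region close to a member therefore needed a ZMYND11 region of its own to belong to the set. Within 5 kb, 57 of the 438 had a member and 112 had another region outside the set. The part of this link in the difference below was not tested. The 438 overlapped no ZMYND11 region, but most lay near one: 276 (63.0%) had a knockout ZMYND11 midpoint within 2 kb and 400 (91.3%) within 10 kb. With its own partner left out, a member had a further ZMYND11 midpoint within 2 kb in 21 cases (3.61%) and within 10 kb in 340 (58.4%). These shares are not alike, since they count a second ZMYND11 region for members and a first for the others. Partner midpoints lay at most 487 bp from the member, and ZMYND11 midpoints were at least 990.5 bp apart. The part of the rule and of this spacing in the shares within 2 kb was not tested. Another ETS2 midpoint within 5 kb was found for 54 of the 582 members (9.28%, interval 7.18 to 11.9%), against 157 of the 438 others (35.8%, interval 31.5 to 40.4%) and 20.7% of the whole ETS2 list. The difference was -26.6 percentage points (Newcombe 95% interval -31.6 to -21.5, counting error only). No p-value is given, since regions of 1 library are not replicates and neighbours are not independent. The nearest other ETS2 midpoint was a median of 131 kb away for members (exact binomial 95% interval 101 to 200 kb) and 20.4 kb for the others (10.1 to 36.6 kb).

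Other distances gave a difference of the same sign. Within 2 kb there were 23 members (3.95%) against 73 others (16.7%), with 9.41% of the whole list. Within 10 kb there were 93 members (16.0%) against 198 others (45.2%), with 28.5% of the whole list. Within 50 kb there were 204 members (35.1%) against 250 others (57.1%), with 44.5% of the whole list. Among the regions with no ETS2 neighbour within 5 kb, 39 of 528 members (7.39%, interval 5.45 to 9.94%) and 41 of 281 others (14.6%, interval 10.9 to 19.2%) had a neighbour at 5 to 10 kb. Among those with none within 10 kb, 111 of 489 members (22.7%, interval 19.2 to 26.6%) and 52 of 240 others (21.7%, interval 16.9 to 27.3%) had a neighbour at 10 to 50 kb, and these intervals overlap. The median ETS2 place was 410.5 for members and 632 for the others. In the first 50% of the list, 9.62% of members and 46.7% of the others had a neighbour within 5 kb, and in the second 50% 8.79% and 29.2%. The part of list place in the difference was not tested.

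**Figure D3:**
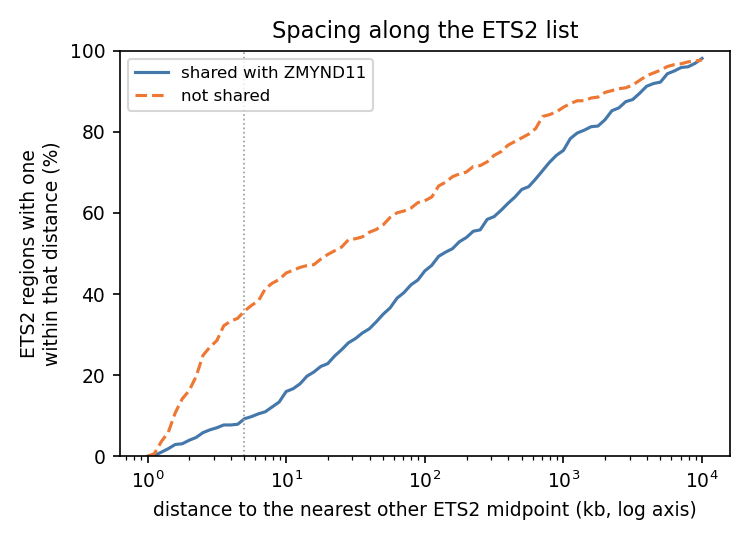
Share of ETS2 regions, in %, that have another ETS2 midpoint within the distance on the x axis (kb, log axis), for the 582 shared with ZMYND11 (solid) and the 438 not shared (dashed), with the dotted line at 5 kb. At 5 kb the solid line is at 9.28% and the dashed line at 35.8%, and the lines come together towards 10000 kb.

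Members also rarely neighboured each other. None had another member within 2 kb, and 4 (0.687%) had one within 5 kb, in 2 pairs. Among the 438 outside the set, 50 (11.4%) had another such region within 2 kb and 112 (25.6%) within 5 kb. A neighbouring member needs a ZMYND11 region of its own. Only 21 members (3.61%) had a second ZMYND11 midpoint within 2 kb, and 23 (3.95%) had another ETS2 midpoint there. The part of the spacing of either list in the counts of neighbouring members was not tested. On chromosome 16, 67875784 to 67876274 (place 809) and 67880359 to 67880835 (place 666) were 4568 bp apart. On chromosome 6, 26027112 to 26027609 (place 251) and 26031928 to 26032421 (place 280) were 4814 bp apart. In that pair the ZMYND11 places, 314 and 331, were close as well.

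Where a member did belong to a run of ETS2 regions with steps of at most 5 kb, it was usually the only one with ZMYND11. There were 96 such runs in the ETS2 list: 2 of members alone, 50 mixed and 44 without a member. The 52 runs with a member held 113 ETS2 regions and 54 ZMYND11 regions, exactly as many as the members in them. Thus 50 of the runs held a single ZMYND11 region. Since no ZMYND11 region met more than 1 ETS2 region, the other ETS2 regions of those 50 runs fall outside the set by construction. Their part in the difference in spacing was not tested. The 44 runs without a member held 98 ETS2 regions, and 27 of those runs held a ZMYND11 region between the ETS2 regions. Of 57 pairs of a member and another ETS2 region within 5 kb, the member was listed first in 36. Members were listed earlier over the whole ETS2 list too, with a median place of 410.5 against 632.

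The longest mixed runs were both on chromosome 11. Between 65267497 and 65275031 there were 4 ETS2 regions, at places 172, 853, 884 and 6 in genomic order. Only the last, 65274531 to 65275031, overlapped ZMYND11. The others were 3772.5 to 6167 bp from the nearest ZMYND11 midpoint. Between 65207907 and 65214051 the 4 ETS2 regions were at places 586, 639, 600 and 781, and the third, 65212331 to 65212831, was the member, with its ZMYND11 partner at place 822.

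A further 5 runs held 3 ETS2 regions and 1 member each. On chromosome 13, from 109917979 to 109924777, the member at place 963 stood between ETS2 regions at places 437 and 52, both listed before it. On chromosome 21, from 46927357 to 46930615, the middle region (46928637 to 46929095, place 503) was the member, with ZMYND11 at place 164. On chromosome 11, from 66128347 to 66133125, the middle region (66129677 to 66130172, place 579) was again the member, with ZMYND11 at place 124. The runs on chromosome 22 (41918111 to 41923189) and chromosome 5 (170842612 to 170846160) had their member at an outer edge, at ETS2 places 340 and 697. The member was thus not always the earliest-listed ETS2 region of its run.

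On the ZMYND11 side, most partners of members had further ZMYND11 regions nearby, as did most other early ZMYND11 regions. Another knockout ZMYND11 midpoint within 10 kb was found for 283 of the 464 partners in the first 10% of the list (61.0%, interval 56.5 to 65.3%). Among the 1104 other regions of that first 10% it was 743 (67.3%, interval 64.5 to 70.0%), and the intervals overlap narrowly. That overlap does not show the shares to be equal, and their difference was not tested. Early partners with such neighbours were listed before all of them in 260 of 283 cases (91.9%). For the other early regions it was 675 of 743 (90.8%). Among all knockout ZMYND11 regions that were not partners, early or late, it was 3426 of 9764 (35.1%). Both early sets were chosen by their place, so a place before most neighbours is partly given by that choice. Within 50 kb both sets had a median of 4 further ZMYND11 regions.

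In parental cells, which still have ETS1, ZMYND11 was listed at few of the shared positions. Of the 582 members, 11 overlapped a parental ZMYND11 region (1.89%, interval 1.06 to 3.35%), against 7 of the 438 other ETS2 regions (1.60%, interval 0.776 to 3.26%) and 1.76% of the whole ETS2 list. A parental midpoint lay within 10 kb of 36 members (6.19%, interval 4.50 to 8.44%) and 31 others (7.08%, interval 5.03 to 9.87%). The intervals of both ETS2 sets overlap at each of these distances. The parental list is short, and ETS2 was not profiled in parental cells here.

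Seen from ZMYND11, 10 of the 582 partner regions overlapped a parental region (1.72%, interval 0.936 to 3.13%), where 0.357% of all knockout ZMYND11 regions did so. Among the 15094 knockout ZMYND11 regions that were not partners it was 46 (0.305%, interval 0.229 to 0.406%). Within the first 10% of the knockout list it was 9 of 464 partners (1.94%, interval 1.02 to 3.64%) and 6 of 1104 others (0.543%, interval 0.249 to 1.18%). The intervals within the first 10% overlap, which does not show the shares to be equal. The counts are small, and the difference was not tested.

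The 11 members found in all 3 lists can be compared base by base. In 10 of them the 3 regions had a stretch in common, the longest of 470 bp and the shortest of 22 bp. On chromosome 2, both ZMYND11 lists gave the same region to the base, 33141256 to 33141726, inside the ETS2 region 33141255 to 33141740. It was the only exact match among the 56 overlapping pairs of parental and knockout ZMYND11 regions, and its place was 1 in the ETS2 list, 1 in the parental list and 111 in the knockout list. On chromosome 17, the ETS2 region 19091279 to 19091569 and its knockout and parental ZMYND11 regions were narrow in all 3 lists. Their widths were 290, 299 and 277 bp. Neither this position nor the chromosome 2 position was screened for known artefactual signal.

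On chromosome 1, the ETS2 region 156736950 to 156737449 shared 305 bp with both ZMYND11 regions, whose midpoints lay 153 bp (knockout) and 189.5 bp (parental) below its own. A second chromosome 1 member, 16840332 to 16840809, had the knockout midpoint 101.5 bp above and the parental midpoint 76.5 bp below. The chromosome 22 member, 20861582 to 20862079 (ETS2 place 76), was at place 181 of 15676 in the knockout and place 177 of 536 in the parental ZMYND11 list. The chromosome 19 member, 5680273 to 5680771, was at places 365, 626 and 438 of the ETS2, knockout and parental lists.

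At some of the 11 the knockout region was the nearer to ETS2 and at others the parental region. On chromosome 20, ETS2 at 62587796 to 62588292 was 3 bp from the knockout midpoint and 474.5 bp from the parental midpoint. On chromosome 14, ETS2 at 103985603 to 103986103 was 286 bp from the knockout and 22.5 bp from the parental midpoint. On chromosome 6, ETS2 at 33244712 to 33245210 bridged a knockout region at 33244295 to 33244781 and a parental region at 33244864 to 33245365, which had a gap of 83 bp between them. The chromosome 5 members were 180670810 to 180671306 (knockout midpoint 275 bp and parental 65.5 bp below) and 176944144 to 176944630 (106.5 bp below and above). Over the 11, the knockout region was nearer in 5, the parental in 4, and in 2 the distances were equal.

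**Figure D4:**
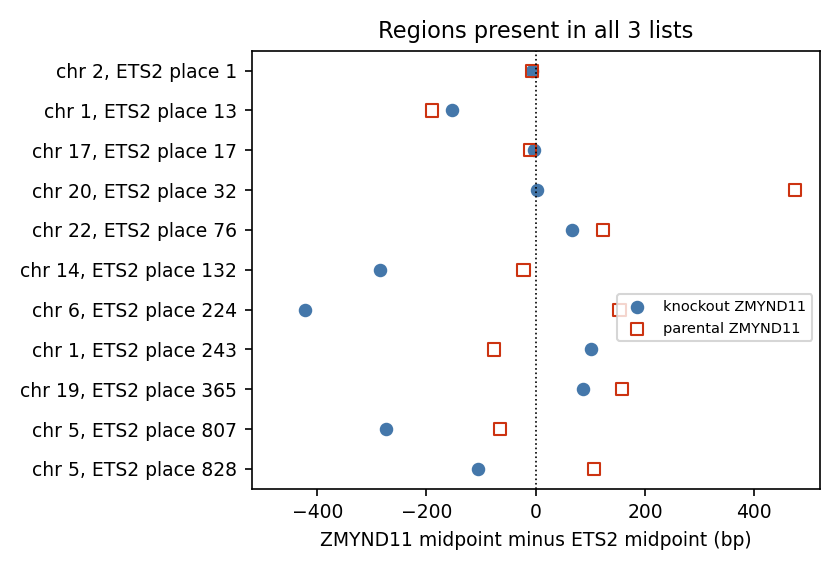
Offset of the knockout ZMYND11 midpoint (filled circles) and the parental ZMYND11 midpoint (open squares) from the ETS2 midpoint, in bp, for the 11 members in all 3 lists, in ETS2 list order from the top. Both symbols lie near 0 for the chromosome 2 and chromosome 17 regions, while the parental symbol is at 474.5 bp for chromosome 20 and the knockout symbol at -423 bp for chromosome 6.

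The members lay on 24 chromosomes, and none was mitochondrial. Chromosome 1 held 76 of them, chromosome 19 held 66, and chromosomes 11, 12 and 17 held 49 each. On chromosome 1, 67.3% of the ETS2 regions were members (interval 58.2 to 75.2%), which was the only one of 21 chromosomes with at least 10 ETS2 regions whose interval lay wholly above 57.1%. For 0 of the 21 did it lie wholly below. Chromosome 17 had 49 members among 103 ETS2 regions (47.6%, interval 38.2 to 57.1%), and chromosome 5 had 37 of 76 (48.7%, interval 37.8 to 59.7%). No test was made over the chromosomes, and the intervals are not adjusted for the 21 looked at.

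The sex chromosomes held 2 members. They were chromosome X, 3732932 to 3733423 (ETS2 place 544, ZMYND11 place 1074), and chromosome Y, 2737919 to 2738420 (places 647 and 754). Both overlapped their partner over more than 90%, with 478 and 469 bp. The chromosome Y region was the only ETS2 region listed there, beside 8 knockout ZMYND11 regions.

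The members fell into 376 megabases, of which 258 held a single member, and the other 324 members shared their megabase with at least 1 more. The highest number was 7, on chromosome 19 from 37 to 38 Mb, where 7 of 8 ETS2 regions were shared among 24 knockout ZMYND11 regions. These members ran from 37019254 to 37904493 and had places 264 to 670 in the ETS2 list and 788 to 4716 in the ZMYND11 list, where the median over all members was 578.5. On chromosome 11 from 65 to 66 Mb, 6 of 17 ETS2 regions were shared, among 70 knockout ZMYND11 regions. On chromosome 17 from 7 to 8 Mb only 4 of 13 were shared, among 47. These megabases were picked for their numbers and were not tested.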

How the data were processed

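Per the submitters' processing notes, reads were processed with Bowtie2 2.0.6 on hg19. The authors deposited 1 list per library with chromosome, start and end only. No source used here names the peak caller, its threshold, a control, the depth or the meaning of the line order. Groups came from the sample titles. Overlap was the smaller end minus the larger start, with a minimum of 1 bp, and distances were taken between midpoints. Shares have 95% Wilson intervals and medians exact binomial intervals over regions. With 1 library per group no test between conditions was possible. The overlap routine was tested on simulated data, and 200 of 200 planted overlaps were recovered. Members, region lists and comparisons were chosen with earlier results of these data known. The regions named were the first 20 and last 5 members, those in all 3 lists, the edge of the rule, the extremes of place, and runs and dense megabases. The sex-chromosome members, the pair with equal midpoints, the mixed runs and the dense megabases were added after their values were seen. Analyses of gene starts, of ETS and AP-1 motifs and of gene lists were planned but not run, since no genome or annotation of hg19 was at hand. The software was statsmodels 0.14.6, scipy 1.17.1, pandas 2.3.3, numpy 2.4.6 and matplotlib 3.10.9 under Python 3.11.15.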

Additional observations from a re-analysis of the deposited data

How the results depend on the processing

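Under 6 other rules the number of shared regions ran from 423 (overlap of at least 250 bp) to 733 (midpoints within 1000 bp). All were within 1.5 times of 582. Leaving out mitochondrial and unplaced sequences could not change the number, since no member lay there. Counting both ends as part of a region could not either, since no pair had a gap of 0. The median midpoint distance of 138 bp fell to 94.75 bp under a reciprocal overlap of 50%, which removes distant pairs by construction. Spearman's rho of the places was 0.63 over all members and 0.58 over the first 50% of both lists. The number in all 3 lists was 11 of 582, 7 of 424 under reciprocal overlap and 14 of 733 with midpoints within 1000 bp. A member within 5 kb was found for 0.687% of members, against 0% within 1000 bp, where the list spacing allows none, and 4.47% within 10 kb. The difference in ETS2 neighbours, -26.6 percentage points, kept its sign under all 7 alternatives, which were chosen after seeing the data: -12.7 within 2 kb, -29.2 within 10 kb, -22.0 within 50 kb, -37.1 and -20.4 in the first and second 50% of the list, -21.3 with members by reciprocal overlap and -32.3 with members by midpoints. Without each chromosome in turn it ran from -27.9 to -25.0. None of these settings was made to remove the link between membership and close ETS2 neighbours. Leaving out replicates was not possible. No paired analysis was possible because each group has 1 library and the labels give no replicate numbers. Settings on gene starts and motifs were not run.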
